A study of Mus musculus with 8 samples.

Results

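Clustered histone genes are the intron-poor genes that supply histones during DNA replication, and they were taken as every gene of the raw counts table whose symbol begins with Hist1 to Hist4 followed by a histone class (H1, H2A, H2B, H3 or H4). 69 of the 26667 genes met this rule. They comprised 6 H1, 19 H2A, 19 H2B, 12 H3 and 13 H4 genes. The number after Hist names the gene cluster: 55 genes belonged to cluster 1 (chromosome 13), 10 to cluster 2 (chromosome 3), 3 to cluster 3 (chromosome 11) and 1 to cluster 4 (chromosome 6). Their RNA was measured in undifferentiated pleomorphic sarcoma (UPS) tumours of the hind limb, a soft tissue sarcoma, 4 of them from KP mice (KP 5, KP 6, KP 7 and KP 8) and 4 from KPH2 mice (KPH2 1, KPH2 2, KPH2 3 and KPH2 4). KP animals carried floxed Trp53 (Trp53 fl/fl) and a further engineered allele, and KPH2 animals carried the same alleles plus floxed Epas1 (Epas1 fl/fl), the gene for HIF-2α. All mice were of mixed 129/C57BL/6 background, of both sexes and at least 8 weeks old when adenovirus expressing Cre was injected into the hind limb muscle, so the deletions were made only in cells that took up the virus. RNA came from formalin-fixed, paraffin-embedded (FFPE) tissue, was depleted of ribosomal RNA without selection for poly(A) tails, and was sequenced as 1 library per tumour.

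KPH2 1 is missing from the authors' table of normalized values for 7 tumours. The paper's Methods left out 1 HIF-2α knockout sample as a technical outlier in principal component analysis, without naming it. KPH2 1 was kept apart, so tests compared KP 5 to KP 8 with KPH2 2 to KPH2 4 unless all 8 tumours are named. Total counts ran from 6463221 in KP 6 and 7073024 in KP 7 to 13155510 in KP 5, and the histone genes took between 0.0558% and 0.12% of them. Levels are given as counts per 1000000 (CPM) after TMM scaling, and fold changes as log2 values with standard errors (SE). Tests were made by the quasi-likelihood method of edgeR, and p-values were adjusted over all 14867 genes tested (Benjamini-Hochberg, threshold 0.05). Since the labels do not say how the tumours are related, p-values describe the spread between these tumours only. Epas1, the gene targeted in KPH2 animals, was at 59.2, 83.2, 86.9 and 84.1 CPM in KP 5 to KP 8, at 53.4, 37.7 and 42.5 CPM in KPH2 2 to KPH2 4 and at 32.6 CPM in KPH2 1. Every KPH2 tumour was thus below every KP tumour, although the log2 fold change of −0.81 (SE 0.19) did not pass the threshold (adjusted p = 0.0742). In such bulk samples, fewer cells of a type and less RNA per cell cannot be told apart.

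Core histones H2A, H2B, H3 and H4 form the octamer around which DNA is wrapped, and linker histone H1 binds where DNA enters and leaves it. Clustered genes are transcribed mostly in S phase, when new DNA has to be packaged, from nuclear bodies that hold the coactivator NPAT. Their mRNAs usually have no poly(A) tail: they end just after a conserved stem-loop that is bound by the stem-loop binding protein (SLBP) and processed with the U7 small nuclear RNP. Replacement histones, by contrast, are encoded by single genes outside the clusters, give polyadenylated mRNAs and are made throughout the cell cycle.

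The stem-loop was looked for in the GENCODE transcripts of GRCm38 as a stem of 6 bases that opens with GG and continues in pyrimidines, a loop of 4 bases opening with TT, and the exact complement of the stem. It was present in the first listed transcript of 44 of the 69 histone genes and in 16 of 55243 other genes (0.029%). All matches in linker, H2A, H2B and H3 genes had the stem GGCTCT, whereas those in H4 genes had GGCCCT or, in Hist1h4b and Hist1h4j, GGTCCT, and the last base of the loop varied within classes. In the genes below, capitals mark the stem, loop and second stem. Shown are a called linker gene, a called H2B gene, an H2B gene with the other loop, the H3 and H4 genes with the smallest p in their classes, and the most abundant H4 gene.

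Hist1h1e (H1): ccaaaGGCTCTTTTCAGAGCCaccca
Hist1h2bj (H2B): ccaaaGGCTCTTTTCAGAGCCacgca
Hist1h2bb (H2B): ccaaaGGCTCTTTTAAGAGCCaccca
Hist1h3a (H3): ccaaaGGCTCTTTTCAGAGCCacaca
Hist1h4j (H4): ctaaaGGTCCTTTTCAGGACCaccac
Hist1h4d (H4): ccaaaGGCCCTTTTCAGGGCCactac

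No match was found in the listed transcript of Hist1h2bc, whose model on chromosome 13 is spliced and runs from 23684199 to 23692480, and some other models stop at the end of the coding sequence. A missing match therefore says only that these letters were not in the sequence searched. The median log2 fold change was 0.87 over 37 tested genes with the match and 0.80 over 19 without. This difference was not tested.

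Promoter sequences (250 bases before to 50 bases after the start, RefSeq on GRCm38.p6) were listed for 62 of the 69 genes. On either strand, the octamer letters ATTTGCAT, known as the binding site of OCT1 in H2B promoters, were found in 7 of 16 H2B and 7 of 18 H2A promoters and in none of the H1, H3 or H4 promoters, against 1.7% of the 32851 promoters listed. The letters CCAAT stood in 53 of the 62 histone promoters but in 3 of the 12 from H4 genes (37.4% of all promoters), and TATAAA in 35 (13.6% of all). The letters AAACACA, known from H1 promoters, were in 5 of 6 H1 promoters (7.2% of all). Below are the promoter of Hist1h2bj, a called gene; that of Hist1h2ac, which lies head to head with the called gene Hist1h2bc and so covers the region between them; and that of Hist2h2bb, the gene with the highest level. Capitals mark the letters of these motifs on either strand.

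Hist1h2bj, chr13:22042948-22043247, plus strand: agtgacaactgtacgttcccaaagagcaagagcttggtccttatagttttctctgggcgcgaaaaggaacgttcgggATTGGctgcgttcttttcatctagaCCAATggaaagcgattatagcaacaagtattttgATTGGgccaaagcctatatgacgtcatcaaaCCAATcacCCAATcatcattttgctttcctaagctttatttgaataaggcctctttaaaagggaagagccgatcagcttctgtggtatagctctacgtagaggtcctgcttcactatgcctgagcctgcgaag
Hist1h2ac, chr13:23683910-23684209, minus strand: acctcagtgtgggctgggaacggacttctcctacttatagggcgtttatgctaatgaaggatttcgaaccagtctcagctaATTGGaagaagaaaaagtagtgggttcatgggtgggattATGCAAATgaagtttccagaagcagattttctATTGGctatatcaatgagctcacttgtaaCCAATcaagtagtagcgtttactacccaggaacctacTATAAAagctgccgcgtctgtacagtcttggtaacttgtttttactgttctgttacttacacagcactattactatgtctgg
Hist2h2bb, chr3:96269450-96269749, plus strand: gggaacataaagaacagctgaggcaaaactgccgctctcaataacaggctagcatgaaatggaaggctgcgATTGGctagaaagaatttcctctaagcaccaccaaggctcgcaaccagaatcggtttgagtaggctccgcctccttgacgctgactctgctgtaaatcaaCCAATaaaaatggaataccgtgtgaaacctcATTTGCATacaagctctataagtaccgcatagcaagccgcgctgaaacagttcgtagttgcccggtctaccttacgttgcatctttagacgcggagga

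Among H2A and H2B genes tested, the median log2 fold change was 0.89 for the 12 with the octamer letters (−0.06 to 1.46) and 0.92 for the 12 without (−1.95 to 2.31). The difference was not tested.

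3 of the 69 histone genes (Hist1h2aa, Hist1h2af and Hist1h2ba) were at 0 counts in all 8 tumours, and 13 in all, these included, were too low to be tested by edgeR. The 13 comprised Hist1h1t, Hist1h2ao, Hist1h2ap, Hist1h2bq, Hist1h2br, Hist1h4m, Hist2h2aa1, Hist2h2aa2, Hist3h2ba and Hist3h2bb-ps besides the 3 at 0. Of the 56 tested, 52 had a higher fitted level in KPH2 tumours and 4 a lower one, where 48% of all tested genes were higher. Only 3 rose past the threshold (1.24% of all tested genes did): the linker gene Hist1h1e and the H2B genes Hist1h2bc and Hist1h2bj. None fell past it by edgeR. Hist1h2bp alone was lower at an unadjusted p under 0.05 (9.26% of all tested genes were), was lower without overlap of the groups (8.15% of all) and was called lower by DESeq2. At an unadjusted p under 0.05, 26 histone genes were higher (8.5% of all tested genes), and for 27 every KPH2 tumour of the 3 was above every KP tumour (8.73% of all). The median log2 fold change was 0.86 over the 56 genes, with a median SE of 0.39, and −0.02 over all tested genes. DESeq2 called 15 histone genes higher, where it called 3.77% of all genes with an adjusted p.

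**Figure D1:**
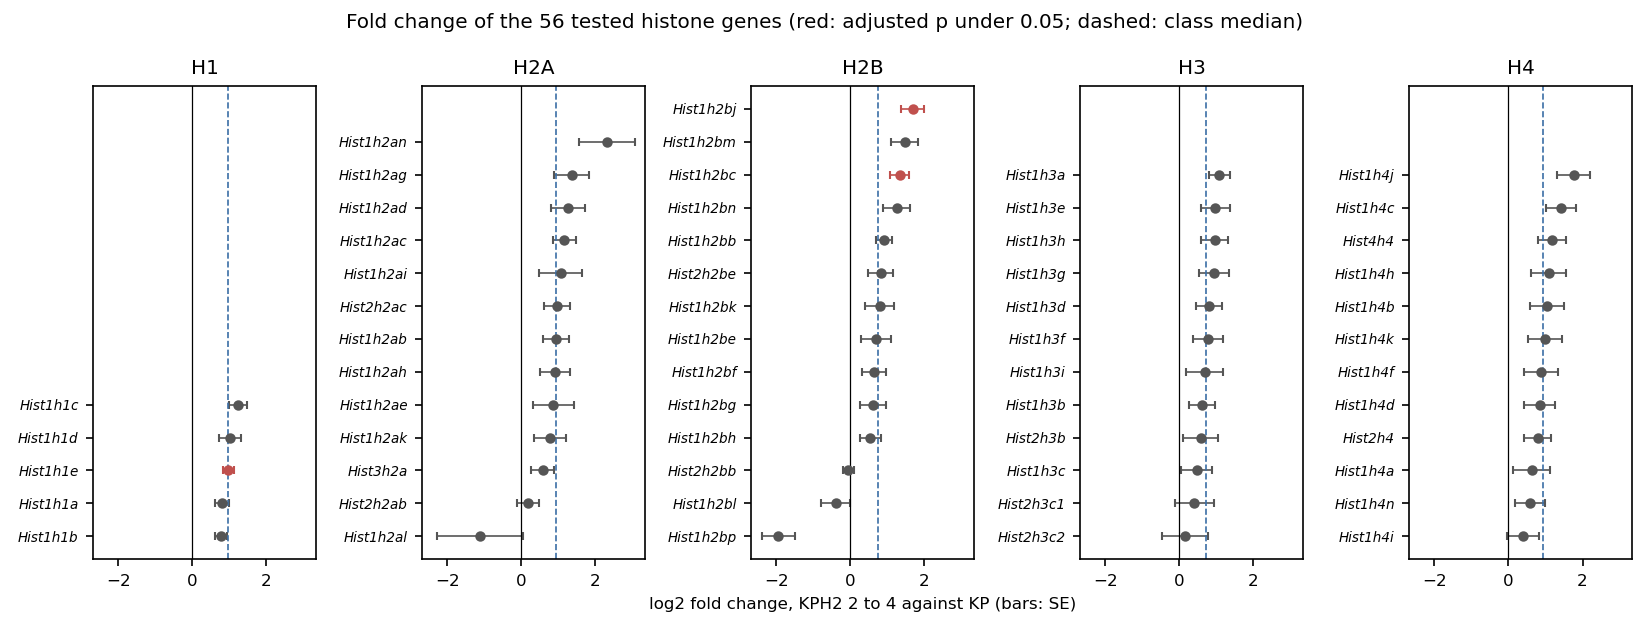
Log2 fold change of each tested histone gene between KPH2 2 to KPH2 4 and KP 5 to KP 8, by class (x axis; bars are SE from edgeR; the dashed line is the class median). Red points mark Hist1h1e, Hist1h2bc and Hist1h2bj, the 3 genes past an adjusted p of 0.05, and 4 genes lie left of 0.

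The summed level of all 69 genes was 845, 558, 585 and 854 CPM in KP 5 to KP 8, or 711 ± 161 (SD, n = 4). It was 1224, 1212 and 1133 CPM in KPH2 2 to KPH2 4, or 1190 ± 49.6 (SD, n = 3). The groups did not overlap and their means differed 1.67-fold, but KPH2 1, at 808 CPM, stood inside the KP range. Within the KP group KP 6 and KP 7 stood well below KP 5 and KP 8.

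That split ran through most single genes. KP 6 and KP 7 held the lowest 2 of the 7 levels for 42 of the 56 tested genes, and KP 6 was lowest for 33. KP 5 was below all of KPH2 2 to KPH2 4 for 39 genes and inside their range for 15, and KP 8 was below for 36 and inside for 15. Relative to each gene's own mean over the 7 tumours (log2 CPM), the median histone gene was at 0.09, −0.98, −0.79 and 0.06 in KP 5 to KP 8 and at 0.61, 0.64 and 0.38 in KPH2 2 to KPH2 4, with KPH2 1 at −0.03. KP 6 and KP 7 were also the libraries with the lowest total counts. Without both, which was tried after seeing the data, the median log2 fold change was 0.47, 52 of 58 tested genes were higher and edgeR called none (0.0583% of all genes). KPH2 1 was inside the KP range for 36 of the 56 genes, above it for 17 and below it for 3. Over all 8 tumours 51 of 55 tested genes were higher, with a median of 0.74, and edgeR called none of them (0.00675% of all genes were called higher), with 20 higher at an unadjusted p under 0.05 (6.65% of all genes). DESeq2 was not run over 8 tumours.

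**Figure D2:**
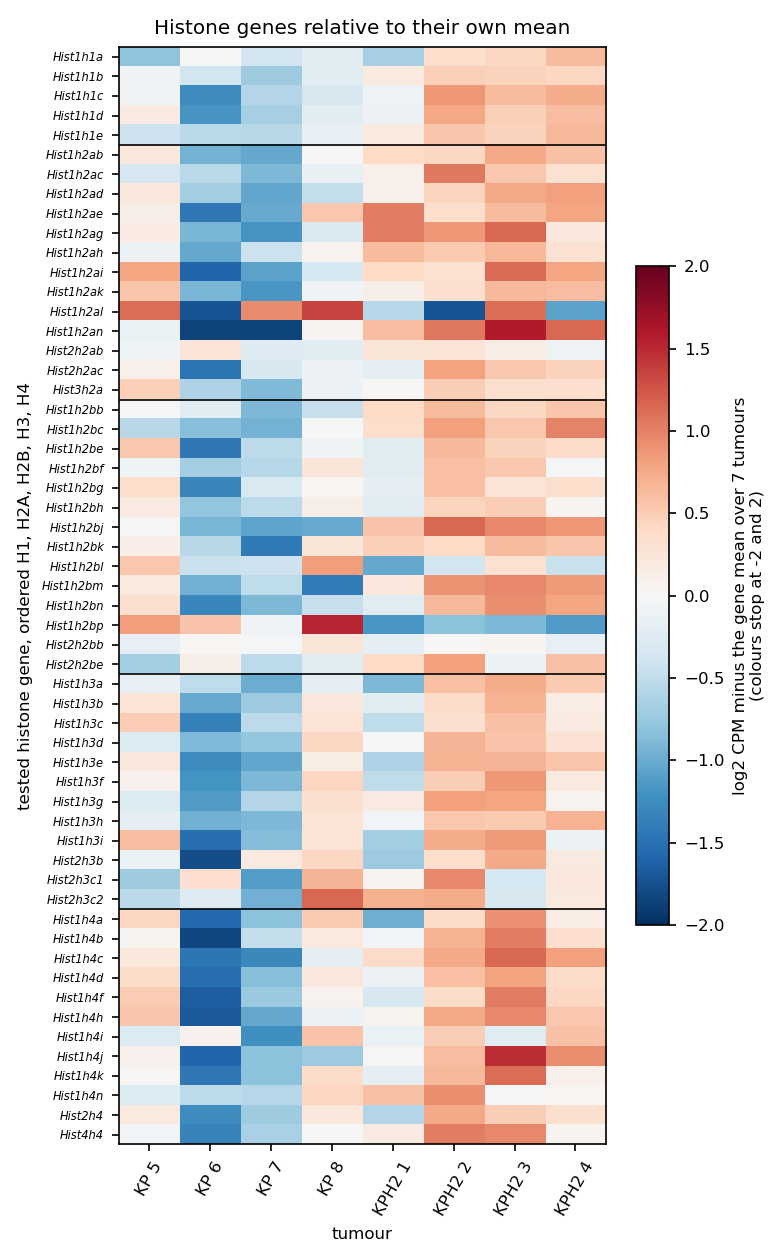
Level of the 56 tested histone genes (rows, ordered by class) in the 8 tumours (columns), as log2 CPM minus the gene's mean over the 7 tumours without KPH2 1; colours stop at −2 and 2. In most rows KP 6 and KP 7 are blue and KPH2 2 to KPH2 4 are red, with KP 5, KP 8 and KPH2 1 between them.

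Linker histones were the only class in which every tested gene separated the groups. Their genes also had the smallest median SE, 0.20 against 0.35 to 0.44 in the other classes. Their median log2 fold change of 0.97 was near that of H2A and H4 genes (both 0.93). The summed H1 level was 272, 205, 209 and 267 CPM in KP 5 to KP 8 and 481, 440 and 479.6 CPM in KPH2 2 to KPH2 4, a ratio of 1.96, with KPH2 1 at 303 CPM. In all 5 tested H1 genes, each of the 3 KPH2 tumours was above every KP tumour (8.73% of all tested genes). Their log2 fold changes ran from 0.77 to 1.23. Hist1h1e, a somatic linker histone gene (chromosome 13, 23621777 to 23622558, minus strand), was at 52.0, 47.8, 47.6 and 62.1 CPM in KP 5 to KP 8. It was at 102, 96.2 and 110 CPM in KPH2 2 to KPH2 4 and at 80.0 CPM in KPH2 1, above every KP tumour. It rose by a log2 fold change of 0.97 (SE 0.15, adjusted p = 0.0234), with p = 0.029 in the 2-sided exact permutation test over the 35 arrangements of the 7 tumours, the smallest p they can give. Here KP 6 and KP 7 were close to KP 5.

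Hist1h1c, another somatic linker gene, was at 62.9, 27.4, 44.0 and 52.9 CPM in the KP tumours and at 120, 102 and 110 CPM in KPH2 2 to KPH2 4 (log2 fold change 1.23, SE 0.25, adjusted p = 0.0523). Its KPH2 1 level of 61.4 CPM was inside the KP range. Hist1h1b was at 39.9 to 62.3 CPM in KP tumours, at 87.2 to 91.4 CPM in KPH2 2 to KPH2 4 and at 74.6 CPM in KPH2 1 (log2 fold change 0.77, SE 0.17, adjusted p = 0.0628). Both stayed short of the threshold, and DESeq2 placed all 5 tested H1 genes past it. The testis linker gene Hist1h1t had at most 1.08 CPM in any tumour and was not tested.

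H2B genes gave 2 of the 3 calls and also the strongest exceptions. Hist1h2bc was at 13.74, 11.2, 10.5 and 20.5 CPM in KP 5 to KP 8, at 36.2, 29.5 and 40.7 CPM in KPH2 2 to KPH2 4 and at 26.1 CPM in KPH2 1. It rose by a log2 fold change of 1.33 (SE 0.25, adjusted p = 0.0418). All 4 KPH2 tumours were above all KP tumours, and the exact permutation p was 0.057 over 7 tumours and 0.029 over 8. Hist1h2bj (chromosome 13, 22043198 to 22043658, plus strand), whose promoter is printed above, was at 7.72, 3.96, 3.56 and 3.70 CPM in KP 5 to KP 8. In KPH2 2 to KPH2 4 it was at 17.1, 15.01 and 14.1 CPM, and KPH2 1 had 11.4 CPM. It rose by a log2 fold change of 1.68 (SE 0.31, adjusted p = 0.0386), and again no KP tumour reached a KPH2 tumour (exact permutation p = 0.057 over 7 and 0.029 over 8 tumours).

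The calls were sensitive to the tumours used. Over all 8 tumours the adjusted p of edgeR was 0.1 for Hist1h1e, 0.107 for Hist1h2bc and 0.106 for Hist1h2bj. Their log2 fold changes stayed positive under all 15 alternatives, at 0.64 to 1.06, 0.84 to 1.58 and 0.95 to 2.05 in that order. All 3 calls were lost when KP 6, KP 7, KPH2 2 or KPH2 4 was left out, with adjusted p up to 0.0833, 0.132 and 0.131 in the order above. Hist1h2bc was also lost without KP 5 (adjusted p = 0.0634) or KPH2 3 (0.0679), and Hist1h2bj without KP 8 (0.0829) or KPH2 3 (0.0851), so that each was called in 1 of the 7 fits that left out a tumour. Without KP 5, 8 histone genes were called, Hist1h1e and Hist1h2bj among them, and 2.4% of all tested genes were called in either direction, against 1.96% in the 7 tumours.

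Hist1h2bm was at 13.1, 5.80, 8.01 and 4.23 CPM in KP tumours and at 21.5, 22.5 and 20.9 CPM in KPH2 2 to KPH2 4, a log2 fold change of 1.46 (SE 0.35) that missed the threshold (adjusted p = 0.0768). KPH2 1, at 13.4 CPM, was level with KP 5. Hist1h2bb had log2 fold change 0.91 (SE 0.22, adjusted p = 0.0742) and separated all 4 KPH2 tumours, at 27.5 CPM or more, from the KP tumours, at 20.3 CPM or less.

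Hist2h2bb was one of 3 tested H2B genes with a log2 fold change below 0. It was the most abundant gene, at 341 CPM per kilobase, and supplied most of the H2B counts in KP tumours. Its level was 150, 172, 163 and 199 CPM in KP 5 to KP 8, 170, 174 and 149.6 CPM in KPH2 2 to KPH2 4 and 147 CPM in KPH2 1. The groups overlapped throughout, with a log2 fold change of −0.06 (SE 0.14, adjusted p = 0.881). The gene (chromosome 3, 96269700 to 96270192) overlaps a longer noncoding RNA model on the same strand (Gm42743) and lies inside an antisense model (Gm20628). Where they overlap, reads from Gm42743 cannot be told from those of Hist2h2bb. For Gm20628 this depends on the strand setting of the counting, which is not given in the sources used here. With Hist2h2bb, the summed H2B level differed 1.31-fold between the groups. Without it, the H2B sum was 147, 79.7, 82.0 and 126 CPM in KP 5 to KP 8 and 210, 196 and 198 CPM in KPH2 2 to KPH2 4, with KPH2 1 at 141 CPM.

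Hist1h2bp, singled out after its values were seen, went the other way. It was at 4.08, 3.40, 2.08 and 6.72 CPM in KP tumours and at 1.17, 1.10 and 0.902 CPM in KPH2 2 to KPH2 4, and KPH2 1, at 0.879 CPM, was lower still. The log2 fold change of −1.95 (SE 0.45) missed the threshold in edgeR (adjusted p = 0.0707) and passed it in DESeq2 (adjusted p = 0.00655). Its 225 counts in all 8 tumours make it a low gene, and 51.1% of its stretches of 100 bases, the read length, occur in other genes as well. Its head-to-head neighbour Hist1h2an, 235 bases away, had the highest fitted change of all (2.31, SE 0.75, adjusted p = 0.159) on 69 counts, with 0 counts in KP 6 and KP 7.

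**Figure D3:**
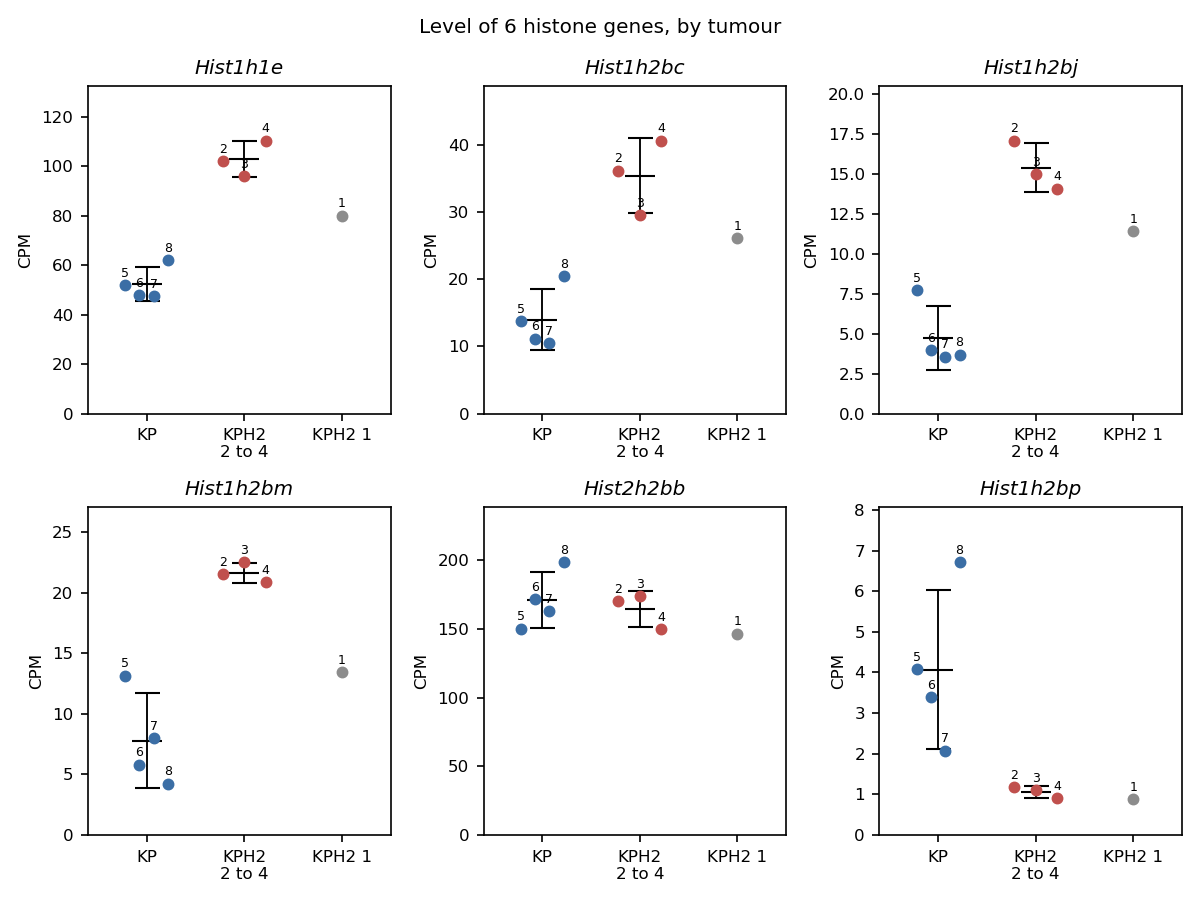
CPM of 6 histone genes in each tumour (points, numbered by tumour; black bars are mean ± SD of KP 5 to KP 8 and of KPH2 2 to KPH2 4; KPH2 1 in grey, apart). Hist1h1e, Hist1h2bc, Hist1h2bj and Hist1h2bm are higher in KPH2 2 to KPH2 4 than in any KP tumour, Hist2h2bb overlaps, and Hist1h2bp is lower in all 4 KPH2 tumours.

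Among H2A genes, which encode the partner of H2B in the nucleosome, 12 of 13 tested had a positive log2 fold change (median 0.93). edgeR called none of them, with 6 higher at an unadjusted p under 0.05, and DESeq2 called 1, Hist1h2ac. The summed H2A level was 49.7, 22.1, 23.1 and 38.6 CPM in KP 5 to KP 8, 61.9, 63.3 and 56.1 CPM in KPH2 2 to KPH2 4 and 47.3 CPM in KPH2 1. KPH2 1 thus lay close to KP 5. Hist1h2ac was at 1.93 to 3.40 CPM in KP tumours and at 8.10, 5.604 and 4.73 CPM in KPH2 2 to KPH2 4, with KPH2 1 at 4.08 CPM (log2 fold change 1.16, SE 0.31, adjusted p = 0.105). The most abundant H2A genes per kilobase, Hist3h2a, Hist2h2ac and Hist1h2ab, had log2 fold changes of 0.57 (SE 0.32), 0.97 (SE 0.36) and 0.93 (SE 0.36). The value of Hist3h2a was 0.90 without KP 5 and 0.18 without KP 6 and KP 7, where Hist2h2ac was at 0.63 and Hist1h2ab at 0.49. The only H2A gene with a negative value was Hist1h2al (−1.11, SE 1.152), a processed pseudogene in the annotation that lies at position 51200084 of chromosome 13, apart from the other genes of cluster 1, and had 58 counts in all.

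H3 was the class with the smallest share of genes that separated the groups. All 12 were tested and all had positive log2 fold changes (0.15 to 1.08, median 0.73). Of these, 3 were higher without overlap of the groups (8.73% of all tested genes were). edgeR called none, with 5 higher at an unadjusted p under 0.05, and DESeq2 called Hist1h3a. The H3 sum was 74.7, 34.1, 40.2 and 86.6 CPM in KP 5 to KP 8 and 105, 110 and 83.7 CPM in KPH2 2 to KPH2 4, so that KP 8 was above KPH2 4, and KPH2 1 had 54.3 CPM. Hist1h3a was at 2.37 to 4.38 CPM in KP tumours, at 7.56, 8.41 and 7.21 CPM in KPH2 2 to KPH2 4 and at 2.56 CPM in KPH2 1, well below them (log2 fold change 1.08, SE 0.28, adjusted p = 0.0914). The most abundant H3 gene, Hist1h3b, was at 12.997 and 12.5 CPM in KP 5 and KP 8 and at 11.8 to 17.3 CPM in KPH2 2 to KPH2 4 (log2 fold change 0.62, SE 0.35). Hist1h3c (0.47, SE 0.42) and Hist1h3i (0.68, SE 0.51) overlapped as well. The value of Hist1h3c was 0.76 without KP 5, 0.21 without KP 6 and −0.03 without KP 6 and KP 7, and that of Hist1h3i 1.07, 0.41 and 0.10. Hist1h3h, at 1.70 to 4.23 CPM in KP and 5.10 to 5.75 CPM in KPH2 2 to KPH2 4, did not (0.95, SE 0.36, adjusted p = 0.219). Without KP 6 and KP 7, the value was 0.17 for Hist1h3b and 0.54 for Hist1h3h.

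H4 genes varied widely between tumours of a group. Their sum was 151, 45.8, 67.6 and 137 CPM in KP 5 to KP 8, 196, 229 and 166 CPM in KPH2 2 to KPH2 4 and 116 CPM in KPH2 1. The 12 tested H4 genes all had positive log2 fold changes (median 0.93). edgeR called none, with 4 higher at an unadjusted p under 0.05, and DESeq2 called Hist1h4c, Hist1h4j and Hist1h4m. Hist1h4d, at 120 CPM per kilobase the second gene in level and free of stretches shared with other genes, was at 55.1, 14.996, 23.7 and 49.96 CPM in KP 5 to KP 8. It was at 64.9, 74.9 and 55.5 CPM in KPH2 2 to KPH2 4 and at 39.4 CPM in KPH2 1. KP 5 and KPH2 4 nearly met, and the log2 fold change of 0.85 (SE 0.42) did not pass the test (adjusted p = 0.34). Hist1h4j had the highest H4 value, 1.76 (SE 0.44, adjusted p = 0.0854), at 0.707 to 2.67 CPM in KP and 3.96 to 7.31 CPM in KPH2 2 to KPH2 4. Hist1h4c was at 4.39 to 14.3 CPM in KP, at 21.0 to 27.4 CPM in KPH2 2 to KPH2 4 and at 16.1 CPM in KPH2 1 (log2 fold change 1.42, SE 0.40, adjusted p = 0.119). Hist1h4f overlapped between the groups, at 4.39 to 20.1 CPM in KP and 18.2 to 29.1 CPM in KPH2 2 to KPH2 4 (0.87, SE 0.46, adjusted p = 0.376). Without KP 6 and KP 7, the log2 fold change was 0.30 for Hist1h4d, 0.90 for Hist1h4c and 0.33 for Hist1h4f.

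**Figure D4:**
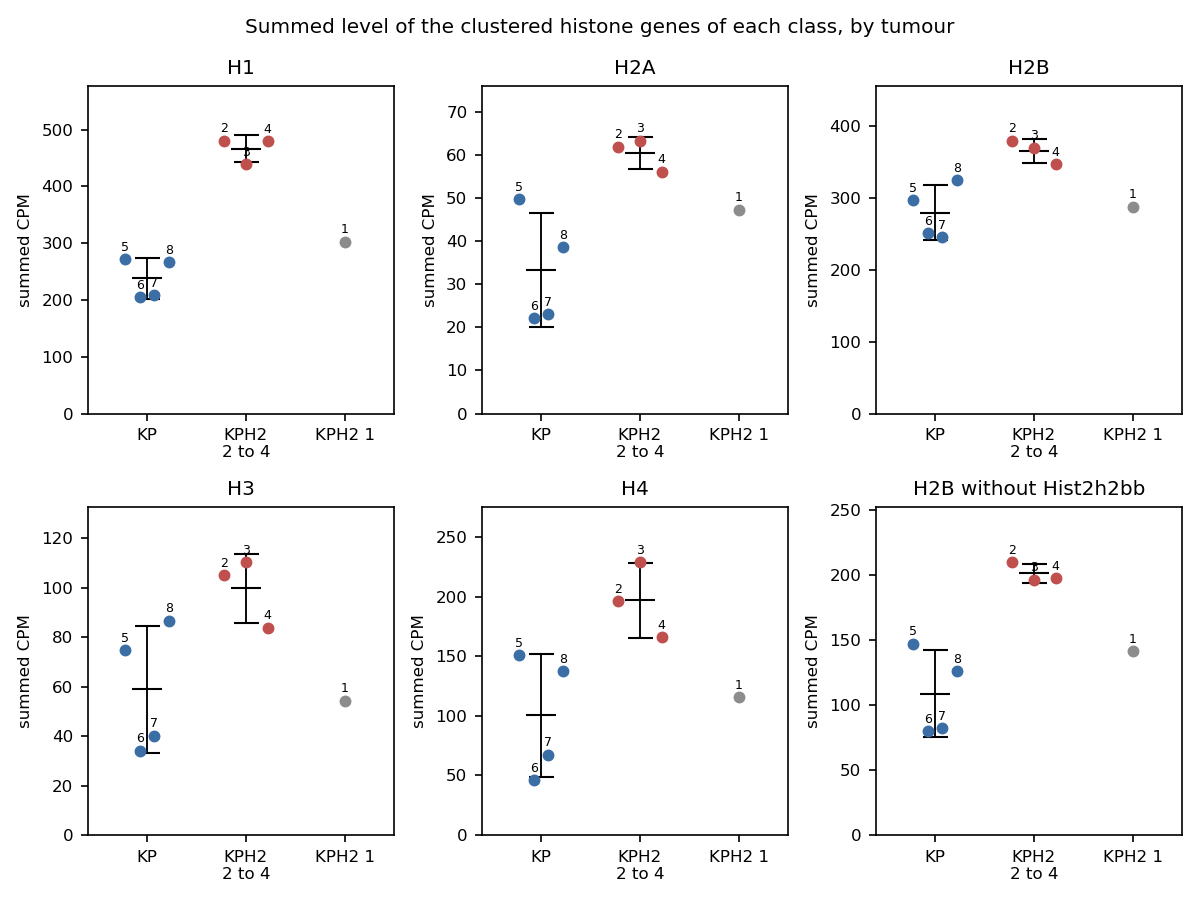
Summed CPM of the histone genes of each class in each tumour, with the H2B sum also shown without Hist2h2bb (points, numbered by tumour; black bars are mean ± SD of KP 5 to KP 8 and of KPH2 2 to KPH2 4; KPH2 1 in grey, apart). KP and KPH2 2 to KPH2 4 separate in every panel but H3, and in all of them KP 6 and KP 7 are the lowest tumours.

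By position, the 31 genes of cluster 1 between 23531044 and 23934913 on chromosome 13 (GRCm38), which include 5 of the H1 genes, had positive log2 fold changes for all 27 tested (median 0.91). Of the 18 tested in the other stretch of cluster 1, between 21715711 and 22043658, 16 were positive (median 0.93), the exceptions being Hist1h2bp and Hist1h2bl (−0.40, SE 0.39). The 8 tested genes of cluster 2 had a median of 0.49, none was called by edgeR or DESeq2, and 2 were higher at an unadjusted p under 0.05. In cluster 4, the single gene Hist4h4 was at 2.69 to 7.02 CPM in KP tumours and at 14.6, 14.01 and 7.33 CPM in KPH2 2 to KPH2 4 (log2 fold change 1.17, SE 0.38, adjusted p = 0.16). 14 pairs of histone genes lay head to head within 1000 bases. Hist1h2ac and Hist1h2bc, 240 bases apart, had log2 fold changes of 1.16 and 1.33, and Hist1h2ag and Hist1h2bj, 249 bases apart, had 1.36 and 1.68. Opposite signs were seen in the pair of Hist1h2an and Hist1h2bp above and in that of Hist1h2ai (1.07) and Hist1h2bl.

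Histone genes of a class are near copies, and the authors counted unique alignments only, so counts can be lost or split between copies. Only 6 of the 69 genes held no stretch of 100 bases found elsewhere, and 6 held nothing but such stretches. The 21 tested genes with under 25% of shared stretches had a median log2 fold change of 0.85 (20 positive) and the 35 with more had 0.87 (32 positive). Of the called genes, Hist1h1e had 24.7% shared, mostly within the overlapping model of Hist1h2be, Hist1h2bc 25.4% and Hist1h2bj 40.1%.

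Genes that act with the clustered histone genes were set beside them. Replacement histones, a list added after the data were seen, had a median log2 fold change of −0.02 over 10 tested genes, 4 of them positive. edgeR called none, with 3 higher at an unadjusted p under 0.05, and DESeq2 called H3f3b. H2afz, the H2A variant found at promoters, was at 21.8 to 41.2 CPM in KP tumours and at 31.5 to 34.1 CPM in KPH2 2 to KPH2 4 (log2 fold change −0.01, SE 0.22). H1f0, the linker histone of resting cells, was at 54.2 to 88.1 CPM and 107 to 122 CPM (0.58, SE 0.18, adjusted p = 0.148).

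Genes of S phase and DNA synthesis, the phase in which clustered genes are read, had a median of 0.00, with 10 of 20 positive, 3 higher at an unadjusted p under 0.05 (E2f2, Rrm2 and Cdt1) and none lower. E2f2, a transcription factor of the G1 to S transition, was the one that rose, from 7.56 to 13.9 CPM in KP tumours to 20.3, 29.4 and 32.7 CPM in KPH2 2 to KPH2 4 (log2 fold change 1.37, SE 0.27, adjusted p = 0.049). KPH2 1, at 9.27 CPM, was inside the KP range, and the call was lost over all 8 tumours. Rrm2, a subunit of ribonucleotide reductase, was at 25.8 to 40.3 CPM in KP and 47.7 to 53.2 CPM in KPH2 2 to KPH2 4 (0.72, SE 0.19, adjusted p = 0.0926), and DESeq2 called both genes over the 7 tumours. KPH2 1 had the highest summed level of the S phase list, 1070 CPM against 711 to 890 CPM in KP and 868 to 893 CPM in KPH2 2 to KPH2 4, while its histone sum was inside the KP range. Of the 15 genes of G2 and mitosis, 10 were positive (median 0.08). None passed in edgeR or DESeq2, nor at an unadjusted p under 0.05 in edgeR. The smallest p in that list was that of the proliferation marker gene Mki67, at 300.2 to 486 CPM in KP and 260 to 359 CPM in KPH2 2 to KPH2 4 (−0.37, SE 0.22, adjusted p = 0.432).

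The genes for histone gene transcription, Npat and E2f1 among them, had a median of −0.06 over 10. None was called by edgeR or DESeq2, and Pou2f1, which encodes OCT1, had the smallest p (0.49, SE 0.18, adjusted p = 0.195) and the only unadjusted p under 0.05. The 15 genes of histone mRNA 3′ processing and decay had a median of 0.07 and none was called by either tool. Slbp was at 37.8 to 48.4 CPM in KP and 36.6 to 42.4 CPM in KPH2 2 to KPH2 4, and the smallest p was that of the cleavage factor gene Cstf2 (0.46, SE 0.14, adjusted p = 0.132). In this list 1 gene was higher and 1 lower at an unadjusted p under 0.05. None of the 16 histone chaperone genes was called by edgeR or DESeq2 or had an unadjusted p under 0.05 (median 0.15), and Nap1l4 had the smallest p (−0.32, SE 0.18, adjusted p = 0.398). Small RNA genes whose products also lack a poly(A) tail had 10 of 12 values above 0 and a median of 0.44, with none called by edgeR or DESeq2 and none at an unadjusted p under 0.05 by edgeR, the smallest p being that of the Y RNA gene Rny3 (0.88, SE 0.45, adjusted p = 0.349). The 187 other tested genes with exons of at most 600 bases had a median of −0.02, with 89 positive. Not all histone genes are that short: Hist1h1e has 782 bases and Hist1h2bc 1156.

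**Figure D5:**
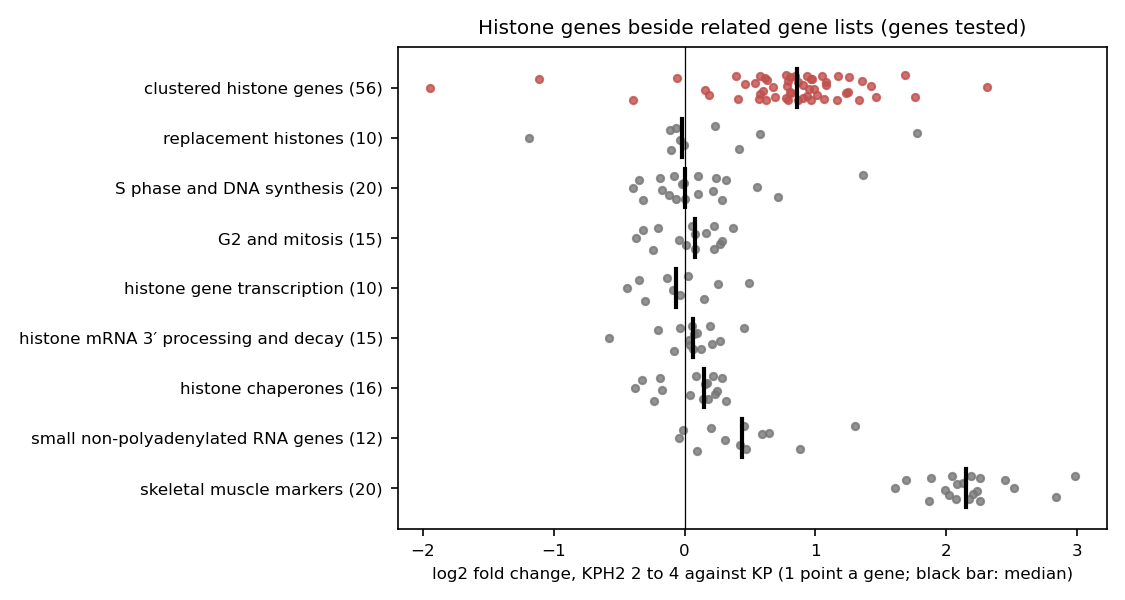
Log2 fold change between KPH2 2 to KPH2 4 and KP of each tested gene (points; the number tested is in brackets; black bars are medians), for the clustered histone genes and for lists of genes that act with them or share a property. The median of the histone genes is 0.86, that of the skeletal muscle markers 2.15 and that of the small non-polyadenylated RNA genes 0.44. The replacement histones, cell cycle genes and histone machinery have medians between −0.06 and 0.15.

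All 20 skeletal muscle markers had positive log2 fold changes (median 2.15). Eno3, a muscle enolase (2.98, SE 0.31, adjusted p = 0.00922), and Neb, which encodes nebulin (2.23, SE 0.42, adjusted p = 0.043), passed the threshold in edgeR. DESeq2 called 16 of the 20, limma on rlog values called Eno3 alone, and edgeR over all 8 tumours called none, with 13 higher at an unadjusted p under 0.05. Their summed level was 3286, 2314, 1802 and 3074 CPM in KP 5 to KP 8, 12184, 19041 and 4220 CPM in KPH2 2 to KPH2 4 and 1480 CPM in KPH2 1, and none was at 0 in any tumour. In the same tumours the histone sum was 845, 558, 585 and 854 CPM in KP 5 to KP 8. It was 1224, 1212 and 1133 CPM in KPH2 2 to KPH2 4 and 808 CPM in KPH2 1. KPH2 4 had the lowest muscle sum of KPH2 2 to KPH2 4, and KPH2 1 the lowest of all 8. All 9 macrophage markers and all 6 endothelial markers had negative values (medians −0.57 and −0.59), and edgeR called none of them, with 4 and 2 lower at an unadjusted p under 0.05, while DESeq2 called 1 and 2. The smallest p values were those of Mrc1 (−1.53, SE 0.39, adjusted p = 0.0951) and Kdr (−0.72, SE 0.18, adjusted p = 0.0818). The macrophage sum was 2333 to 4244 CPM in KP and 1714 to 2552 CPM in KPH2 2 to KPH2 4, and the endothelial sum 238 to 463 and 202 to 238 CPM. No macrophage or endothelial marker was at 0 in any tumour. Neutrophil and lymphocyte markers summed to at most 62.4 CPM in any tumour, with S100a9, Ly6g and Ms4a1 at 0 in some tumours. Mesenchymal genes summed to 11488 to 22975 CPM in KP and 9417 to 17161 CPM in KPH2 2 to KPH2 4. The part that tissue makeup or library depth has in the histone levels was not tested.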

How the data were processed

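RNA from FFPE sections of 4 KP and 4 KPH2 tumours was sequenced. Reads were aligned by the authors with STAR 2.4 to the GRCm38 genome, unique alignments were assigned to RefSeq genes with HTSeq 0.6.1, and the raw counts were deposited without scaling. The strand setting is not given in the sources used here. They also deposited log2 values from the rlog transformation of DESeq2 (1.6 per the labels) for 7 tumours, which defined the tumours tested and served as an alternative. A table of rlog values for 8 tumours was not used.

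Analyses were run in R 4.3.3. Counts were fitted by edgeR 4.0.16 (TMM, minimum count 10, minimum total count 15, robust quasi-likelihood test, no covariates). Log2 CPM used a prior count of 2, and DESeq2 1.42.0 and limma 3.58.1 gave alternatives. The steps were tested on simulated data. No 2 libraries were alike within counting error. The members and lists were chosen with earlier results of these data known. Genes named are those past an adjusted p of 0.05 and head-to-head neighbours of called genes. In each class they include the 3 highest per kilobase and the 2 with the smallest p. In each list they include the called genes and that with the smallest p. The replacement histones and the neutrophil, lymphocyte and mesenchymal lists were not held to this. Hist1h1t, Hist1h2bp, Hist1h2bl, Hist1h2al, Hist4h4, H2afz, H1f0, H3f3b, Slbp and other genes outside this rule were named after their values were seen. Alternatives were all 8 tumours, other scalings and filters, leaving out each tumour, and other tools, with the omission of KP 6 and KP 7 added after seeing the data. An engineered allele that both groups share and a marker list are not reported here.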

Additional observations from a re-analysis of the deposited data

Results flagged for a closer look

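Levels of the named genes and the class and cluster sums were tested for a tumour far from the other 3 of its group, by the gap to the nearest tumour over the whole range on a log2 scale (Dixon's 95% limit for 4 samples), with KPH2 1 counted in its group. 4 of 68 tests passed the limit, where chance flags about 1 in 20. KP 5 stood above the other KP tumours for Hist1h2bj (ratio 0.863). KPH2 1 stood below the other KPH2 tumours for Hist1h2bm (ratio 0.851), for Hist1h3a (ratio 0.869) and for the summed level of cluster 1 (ratio 0.886), which was 611 CPM in KPH2 1 and 966, 967 and 918 CPM in KPH2 2, KPH2 3 and KPH2 4.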

How the results depend on the processing

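The direction of the median log2 fold change was positive under all 15 alternatives, between 0.45 (authors' rlog values, which are shrunken) and 1.04, and leaving out 1 tumour gave 0.72 to 1.04. The count of histone genes called higher was 3 (1.96% of all tested genes called in either direction). It was 0 over all 8 tumours (0.00675%) and without KP 6 and KP 7 (0.0583%), 5 with no filter on low counts (1.55%), 5 on rlog values with limma (2.17%), 15 with DESeq2 (7.2%), and 0 to 8 when 1 tumour was left out (0.362% to 2.4%): it was 0 without KP 6, KP 7, KPH2 2 or KPH2 4, 2 without KP 8 or KPH2 3 and 8 without KP 5. DESeq2 called 1 gene lower. With a mean count of at least 50, 33 of 35 tested genes were positive. Epas1 passed the threshold with DESeq2 (−0.81) and without KP 5, with values of −0.96 to −0.71 when 1 tumour was left out. Signs turned for Hist2h2bb without KP 8 or KPH2 4 (range −0.105 to 0.0206 when 1 tumour was left out), and for Hist1h3c without KP 6 and KP 7 (−0.0299). The cause was not tested. Hist1h2an rests on few counts, and the part that depth has in its value was not tested. No paired analysis was made because the labels give no pairing of tumours between the groups.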

Other observations

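Hist1h4m, which was below the count filter of edgeR over the 7 tumours but was called higher by DESeq2, and by edgeR with no filter or without KPH2 3, was at 0.0743, 0, 0.148 and 0.0755 CPM in KP 5 to KP 8, at 1.35, 0.801 and 1.47 CPM in KPH2 2 to KPH2 4 and at 0 in KPH2 1, on 39 counts in all. By share of the histone total, H2B genes supplied 35.2%, 45.0%, 41.9% and 38.0% in KP 5 to KP 8. Their share was 31.0%, 30.5% and 30.7% in KPH2 2 to KPH2 4 and 35.6% in KPH2 1. Hist2h2bb, with a log2 fold change of −0.06, is part of these shares. Without it, H2B summed to 147, 79.7, 82.0 and 126 CPM, of totals of 695, 387, 422 and 656 CPM, in KP 5 to KP 8. In KPH2 2 to KPH2 4 the H2B sums were 210, 196 and 198 CPM, of 1054, 1039 and 983 CPM. H1 genes supplied 31.3% to 36.7% in KP tumours and 36.3% to 42.3% in KPH2 2 to KPH2 4, so these ranges overlapped. Their total holds Hist2h2bb as well. Against the totals without it, the H1 sums were 272, 205, 209 and 267 CPM in KP 5 to KP 8. They were 481, 440 and 479.6 CPM in KPH2 2 to KPH2 4. Differences in share were not tested.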
